A study of Homo sapiens with 12 samples.

Results

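SMARCA4 KO was compared with control in MDA-MB-231, a mesenchymal-like line of triple negative breast cancer, using 6 of the 12 RNA-seq samples of the series. The members were taken by their labels. The 3 controls are titled WT with a wild type genotype, and the 3 KO samples have the genotype SMARCA4 knock-out. The KO cells were polyclonal pools, made with Cas9 and a single guide RNA from a lentiviral vector and selected with puromycin, so cells with different edits were measured together. The study's protein blots set KO cells beside cells given a nontargeting Cas9 vector as well as parental cells, and the labels, which call these samples both WT and Control, do not say which of them were sequenced. No label says that replicates came from separate cultures, so the p-values measure only the spread between these samples. The other 6 samples are the same comparison in MDA-MB-468, a basal-like line, which was used to test whether the change differed between the cell lines and as a reference where it is named.

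SMARCA4 (BRG1) is the ATPase that powers most SWI/SNF complexes, which slide or evict nucleosomes at enhancers and promoters. SMARCA2 (BRM) is the alternative ATPase of the same complexes. Because the complexes act at many regulatory elements rather than in a single pathway, loss of the ATPase can raise some genes and lower others, and the response depends on the cell type. The comparison was therefore read as pathways and gene families, each with all of its measured members.

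The guide is shown because every KO value below depends on it, with the motif that Cas9 needs in capitals.
Guide RNA target and its motif: atggtccctctcgcagcccaTGG
It matched 1 place in the GRCh37 genome, chr19:11095933-11095952 on the plus strand. SMARCA4 spans chr19:11071608-11190102 there, and 4 of the 20 target bases lie in exon 3 of the MANE Select transcript, with the rest in the intron before it. The paper names exon 4 as the target, and the exon numbering of the transcript it cites was not compared. In FPKM, a read count scaled for gene length and library size, SMARCA4 was 67.5, 71.5 and 67.0 in the controls and 21.0, 23.9 and 22.6 in the KO samples. The groups did not overlap, and the mean in KO cells was 32.7% of the control mean (log2 fold change -1.57, SE 0.06, adjusted p = 0.0014). In bulk RNA, fewer cells of a kind and less RNA per cell cannot be told apart, which holds for each value below.

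The deposited table held 11529 genes as log2(FPKM + 1), and the depth behind the values is unknown. The correlation across genes, which are not independent, was 0.991 to 0.994 within a group and 0.981 to 0.989 between KO and control samples. Of 9 genes chosen as typical of MDA-MB-231, such as VIM and CAV1, 8 had a row, and their summed FPKM was 2622 to 2939 in control and 2332 to 2546 in KO samples. All 10 epithelial and basal breast markers had a row, with a sum of 16.8 to 22.2 FPKM in control and 23.9 to 32.7 in KO samples. Of these CDH1 and ELF3, which are also in the epithelial list below, passed as higher, while KRT6A and KRT6B were at 0 in all 6 samples. The defining markers of fibroblasts (0 of 7) and endothelial cells (0 of 5) had no row in the table, from which genes with a low average or spread had been removed. The 20 genes that best mark MDA-MB-468 were chosen among genes of very low level in every MDA-MB-231 control. They summed to 0.56 to 1.0 FPKM in control and 1.04 to 1.79 in KO samples, beside 13136 in MDA-MB-468 control cells. The low control sums follow from that choice, which did not limit the KO samples, so the groups are not compared.

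DEGs were defined by an adjusted p under 0.05 in limma and an absolute log2 fold change over 0.5. There were 426 DEGs, 3.70% of the genes tested, of which 275 (2.39%) were higher and 151 (1.31%) lower in KO cells. In all 426 DEGs the 3 KO samples lay on one side of the 3 controls. The same held for 4151 of all 11529 genes, so groups that do not overlap are common here and add little to a call. The higher DEGs were mostly genes of low level, with a median control log2 value of 2.52, against 3.86 for the lower DEGs and 4.18 for the other genes. More than a doubling on the log2(FPKM + 1) scale was seen for 62 higher and 23 lower DEGs, and this scale understates the change of genes of low level. Leaving out 1 sample at a time gave between 99 DEGs without KO replicate 2 and 311 without KO replicate 3, as the closing part lists. A limma fit with the replicate number as a block gave 0 DEGs, where adjusted p-values began at 0.052. That fit gave 377 DEGs when GC content and transcript length were also fitted out of each sample.

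The changes went with the GC content of the transcripts, by which the genes were divided into 10 bins of equal size. GC content was known for 94.3% of the genes, and its rank correlation with the log2 fold change across genes was 0.29, given as a description only. In the bin with the lowest GC content the median log2 fold change was -0.09, with 7 higher and 20 lower DEGs. In the bin with the highest GC content it was 0.08, with 60 higher and 4 lower DEGs. The median GC content was 57.0% for the higher DEGs, 45.3% for the lower DEGs and 48.5% for the other genes. After GC content and transcript length were fitted out of each sample the correlation was 0.01, and 344 of the 410 DEGs with a known GC content were called again in the same direction. The part of GC content in each list was not tested. The counts of DEGs were the same with the correction in 21 of the 46 lists described below, and for the other 25 the corrected counts are given. An equal count can hold other genes. IDI1, ANKRD1 and LOX, lower DEGs of such lists, had corrected log2 fold changes of -0.42, -0.497 and -0.49, inside the limit of 0.5.

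Of the 46 lists examined, which together held 2074 genes and 131 of the DEGs, 10 had no DEG. Leukocyte-type genes and cholesterol synthesis had the greatest shares of lower DEGs among lists with at least 10 measured members. MHC class II genes, cadherins, the retinoid metabolism list and epithelial junction genes had the greatest shares of higher DEGs, all without the GC and length correction. The lists were chosen with earlier results of these data known, so these shares and those below are descriptions and not tests. The median log2 fold change of all genes was -0.01, and the medians of lists below are read beside it.

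**Figure D1:**
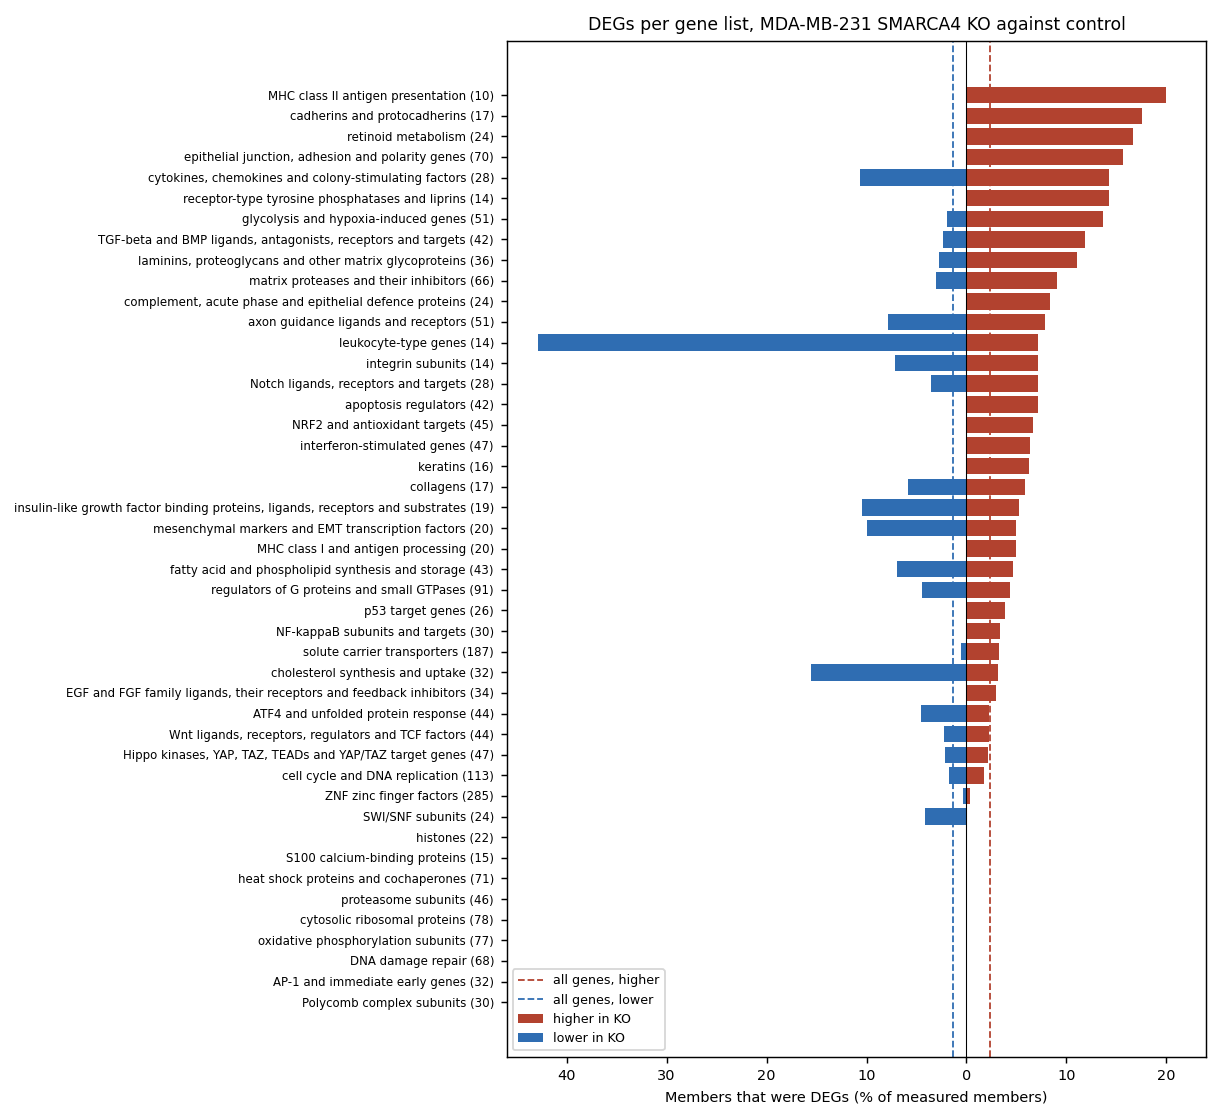
Share of measured members (%, number in parentheses) that were higher (right) or lower (left) DEGs in KO cells, for the lists with at least 10 measured members. Dashed lines mark the shares of all genes, 2.39% higher and 1.31% lower. The longest bar is that of the leukocyte-type genes, with 6 of 14 lower. The lists were chosen with earlier results of these data known.

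MHC class II molecules present peptides from outside the cell to CD4+ T cells, and are normally made by antigen-presenting cells under the control of the transactivator CIITA. Here 2 of 10 measured members of 20 listed rose in KO cells, 20.0% beside 2.39% of all genes, and the median log2 fold change was 0.71. HLA-DPA1, a class II alpha chain, measured 6.34, 13.6 and 16.3 FPKM in the controls and 63.9, 71.2 and 57.0 in the KO samples. Its log2 fold change of 2.40 (SE 0.33, adjusted p = 0.017) was the largest increase of all DEGs. HLA-DRA, the alpha chain of HLA-DR, measured 7.15, 20.0 and 25.1 against 64.6, 68.0 and 62.4 FPKM (log2 fold change 2.00, SE 0.43, adjusted p = 0.044). For both genes control replicate 1 was the lowest sample, yet every KO sample lay above every control.

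The other class II members did not reach the threshold and were named after their values were seen. CD74, the invariant chain, had 249, 393 and 436 FPKM in control and 642, 698 and 610 in KO samples (adjusted p = 0.054). HLA-DMA and HLA-DMB, which load peptide, both had a difference of 0.90 in log2 level, with an adjusted p of 0.11 and of 0.068, and for CIITA the difference was 0.52 with an adjusted p of 0.063. CTSS, a lysosomal protease that trims the invariant chain, had -0.80 (adjusted p = 0.11). In CD74, HLA-DMA, HLA-DMB and CIITA the KO samples all lay above the controls, while in CTSS they all lay below. Groups were apart in this way, in either direction, in 4151 of all 11529 genes. With the GC and length correction 4 members passed. Without control replicates 1, 2 and 3 the count was 3, 2 and 1, and without KO replicates 1, 2 and 3 it was 0, 0 and 1. HLA genes have near-identical copies and many alleles, and how reads were split among them is uncertain.

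Stretches before the annotated starts of 3 class II pathway genes that held a match, and whose KO samples all lay above the controls, are shown with CCAAT, the letters of the box bound by NF-Y, or its reverse complement ATTGG in capitals (RefSeq, GRCh38.p14, 100 bases ending at the base before the start).
CD74, chr5:150412911-150413010, minus strand: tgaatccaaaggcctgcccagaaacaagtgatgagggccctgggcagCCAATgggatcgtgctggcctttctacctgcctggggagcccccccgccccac
HLA-DMA, chr6:32953098-32953197, minus strand: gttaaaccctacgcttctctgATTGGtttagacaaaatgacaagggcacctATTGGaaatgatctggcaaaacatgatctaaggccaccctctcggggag
HLA-DMB, chr6:32941029-32941128, minus strand: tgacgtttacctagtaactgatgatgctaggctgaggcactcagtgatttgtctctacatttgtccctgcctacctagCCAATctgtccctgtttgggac
Of the 7 class II members with a sequence, 5 (71.4%) had these letters on either strand within 250 bases before the start, as did 35.4% of the 8258 genes of the table with a sequence. HLA-DPA1 and RFXANK had 0 matches, IFI30 had 1, and RFX5, with a log2 fold change of -0.01, had 2. Here and below only the first listed start of each gene was searched. A count of 0 therefore does not show that a gene, such as HLA-DPA1, lacks these letters in the promoter it uses. A match of letters describes the sequence and not binding.

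MHC class I genes, which present peptides from inside the cell, had 1 DEG. HLA-B passed, of 20 measured members (152, 149 and 181 FPKM in control and 248, 257 and 218 in KO samples, log2 fold change 0.59, adjusted p = 0.028), although 18 of the 20 had a log2 fold change above 0 and their median was 0.07. After the correction for GC and length 2 class I members were higher. HLA-B was called again without control replicate 3 or KO replicate 3 and not without the others. Among 47 interferon-stimulated genes 3 rose (6.38%). IFI27 had 47.9, 62.6 and 73.4 FPKM in control and 169, 129 and 112 in KO samples. OAS1, a sensor of double-stranded RNA, had 0.77, 0.93 and 1.11 against 3.16, 2.74 and 2.38, and IFITM3, which blocks virus entry, rose by 0.59 (adjusted p = 0.046). The groups did not overlap in these genes. The median of the interferon list was 0.19, with 33 members above 0 and 14 below, and 4 members were higher with the GC and length correction. Without KO replicate 2 none of its members was a higher DEG, and 1 was without each of the others.

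Secreted defence proteins included some of the largest increases. LCN2, a lipocalin that binds bacterial siderophores, measured 17.5, 32.5 and 33.5 FPKM in the controls and 150, 139 and 91.0 in the KO samples (log2 fold change 2.17, SE 0.31, adjusted p = 0.018). C3, the central complement component, measured 19.01, 34.3 and 31.7 against 81.8, 87.9 and 61.3 FPKM (log2 fold change 1.44, adjusted p = 0.029). KO replicate 3 was the lowest KO sample in both, and still above the controls. These were 2 DEGs of 24 measured members (8.33%), and the median of the list was 0.18. With the GC and length correction 5 members were higher and 1 was lower. Without control replicates 1, 2 and 3 there were 4, 1 and 2 higher DEGs, and without KO replicates 1, 2 and 3 there were 0, 0 and 3.

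Cytokines moved in both directions, with 4 of 28 measured members higher and 3 lower. IL11, a cytokine of the IL6 family made by stromal and bone-metastatic cells, had the largest decrease of all DEGs. It measured 103, 92.2 and 87.6 FPKM in the controls and 13.5, 12.9 and 15.6 in the KO samples (log2 fold change -2.67, SE 0.09, adjusted p = 0.0014), the highest KO sample lying far below the lowest control. CSF2, the granulocyte-macrophage colony-stimulating factor, had 155, 119 and 123 FPKM in control and 95.1, 70.7 and 70.0 in KO samples, and IL18 (9.74, 13.2 and 14.7 against 7.74, 7.09 and 7.67) fell as well (adjusted p = 0.046). The higher members were the chemokines CXCL16 and CCL2, the T cell co-stimulator TNFSF9 and the macrophage growth factor CSF1. CCL2 had 5.63, 4.65 and 4.62 FPKM in control and 8.59, 12.3 and 12.3 in KO samples. CSF1 had 164, 162 and 165 against 274, 274 and 230. The correction gave 5 higher and 3 lower cytokines. Without control replicates 1, 2 and 3 the list had 3, 1 and 1 higher DEGs and 3, 1 and 1 lower, and without KO replicates 1, 2 and 3 it had 1, 0 and 2 higher and 1 lower each time.

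Genes best known from leukocytes had the greatest share of lower DEGs. Of 50 listed genes 14 were measured, and 6 of them (42.9%, beside 1.31% of all genes) fell. The list was chosen with earlier results of these data known, so this share is a description. CXCR4, the receptor of the chemokine CXCL12 that guides cells to marrow and metastatic sites, measured 16.9, 16.1 and 17.8 FPKM in the controls and 2.38, 1.98 and 3.04 in the KO samples (log2 fold change -2.38, SE 0.12, adjusted p = 0.003). ARHGDIB, an inhibitor that keeps small GTPases off the membrane, measured 119, 99.2 and 94.6 against 30.1, 31.1 and 34.2 FPKM (log2 fold change -1.68, adjusted p = 0.0051). For both, the values within a group lay close together and the groups were far apart. TRBC2, annotated as a T cell receptor beta constant segment with a near-identical neighbour, had 18.0, 17.5 and 21.6 FPKM in control and 5.66, 3.88 and 4.44 in KO samples. LAPTM5, a lysosomal membrane protein, the integrin chain ITGB2 and the proteoglycan SRGN fell by 0.92, 0.85 and 0.63 on the log2 scale. CD14, the lipopolysaccharide co-receptor, rose from 0.79, 1.39 and 1.31 to 4.90, 4.39 and 2.65 FPKM. It was also the only 1 of 11 defining leukocyte markers with a row in the table. Corrected for GC content and length, 5 of the list were lower and 1 was higher. The lower count was 5, 4 and 4 without control replicates 1, 2 and 3 and 5, 3 and 4 without KO replicates 1, 2 and 3, and all of these genes were among the 6. The rise of CD14 was called again only without KO replicate 3.

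**Figure D2:**
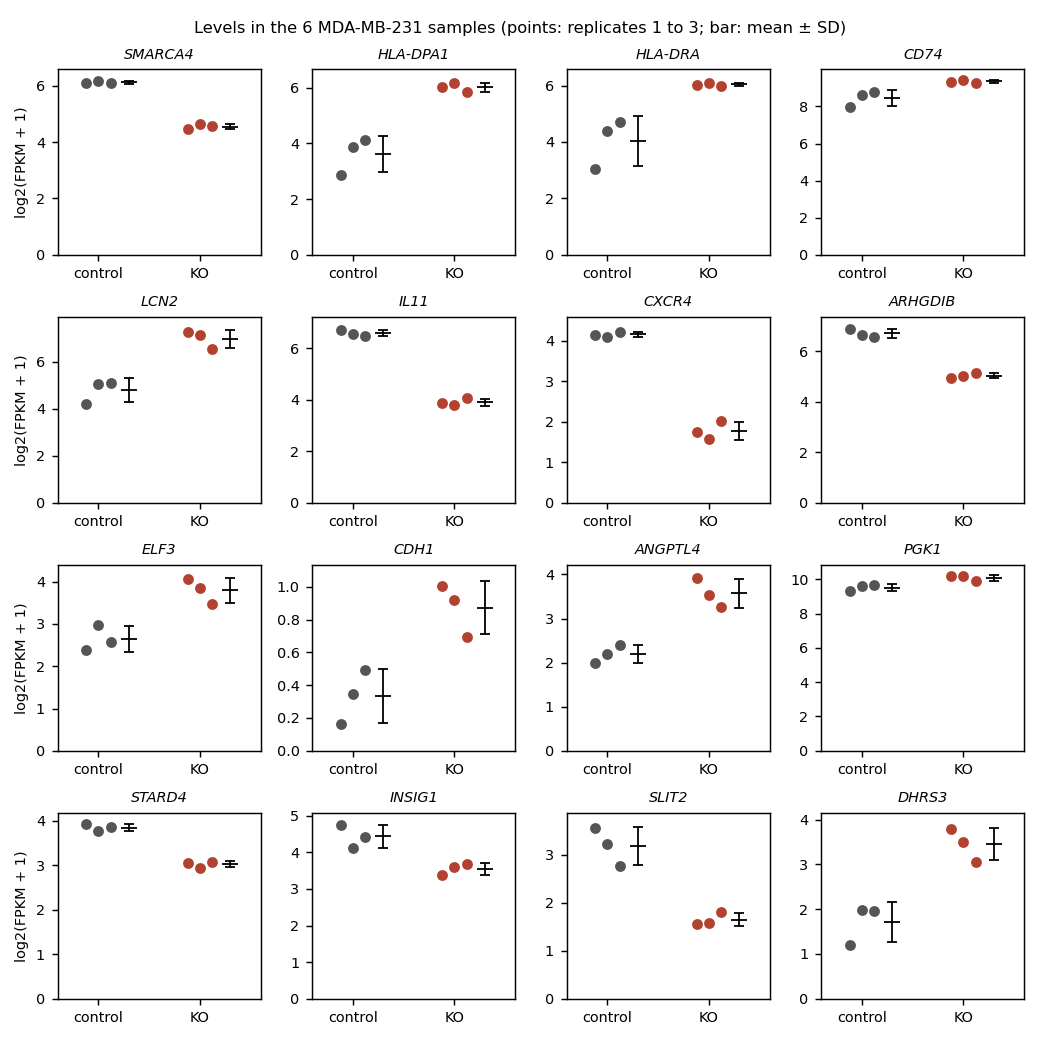
Log2(FPKM + 1) of 16 genes in the 6 samples, each point being a replicate, with the mean ± SD beside it (n = 3 each). The groups do not overlap in any panel, as in 4151 of all 11529 genes. HLA-DPA1 and LCN2 stand higher in KO samples and IL11, CXCR4 and ARHGDIB lower.

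MDA-MB-231 cells make little E-cadherin and few epithelial junction proteins, the proteins that seal and polarize an epithelial sheet. In KO cells 11 of 70 measured members of the epithelial list rose (15.7%, beside 2.39% of all genes) and 0 passed as lower, with 49 above 0, 20 below and a median of 0.12. ELF3, an epithelial ETS factor, measured 4.22, 6.91 and 4.99 FPKM in the controls and 15.6, 13.5 and 10.1 in the KO samples (log2 fold change 1.14, SE 0.21, adjusted p = 0.031). EHF, a related ETS factor, was already high in control cells and went from 64.2, 77.1 and 67.1 to 100.2, 96.5 and 99.6 FPKM. The list does not hold SPDEF, an ETS factor of secretory epithelium, which fell (log2 fold change -1.48, adjusted p = 0.022). The count of 0 lower members therefore depends on which genes were listed.

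The tight junction scaffolds and claudins among them stayed at low levels. TJP3 measured 0.28, 0.72 and 0.56 FPKM in control and 2.32, 2.66 and 1.80 in KO samples, and CLDN3 measured 1.58, 1.57 and 1.93 against 3.48, 3.71 and 3.37. CGN, LSR, PARD6B, CXADR and LLGL2 rose by log2 fold changes of 0.66, 0.88, 0.79, 0.59 and 0.50. CDH1, the gene of E-cadherin, rose from 0.12, 0.27 and 0.41 to 1.01, 0.89 and 0.62 FPKM (log2 fold change 0.54, SE 0.12, adjusted p = 0.044), a level still near 1 FPKM in the highest KO sample. The count of higher DEGs was 5, 7 and 5 without control replicates 1, 2 and 3 and 3, 1 and 6 without KO replicates 1, 2 and 3, all of them among the 11. In CDH1 and TJP3 control replicate 1 was the lowest sample. After the correction 10 members of the list were higher and 0 lower.

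Among 16 keratins, the intermediate filaments of epithelial cells, KRT15 rose (5.80, 5.86 and 5.10 against 15.5, 14.99 and 13.5 FPKM, log2 fold change 1.25, adjusted p = 0.0051) and no other keratin passed. This call held without each of the 6 samples, and with the GC and length correction 1 keratin was higher and 1 lower. The lowest log2 fold change among the keratins was -1.38, and 1 keratin was a lower DEG without control replicate 1. Cadherins and protocadherins had 3 higher DEGs of 17 measured members. PCDH1, an adhesion protein of airway epithelium, had 1.78, 2.77 and 2.48 FPKM in control and 11.9, 11.3 and 9.12 in KO samples (log2 fold change 1.82, SE 0.15, adjusted p = 0.0072), and the planar polarity cadherin CELSR1 rose by 0.68. The other DEG was CDH1, and only 1 of the 3 was called without KO replicate 2. With the correction 2 members were higher and 1 was lower. Of 20 mesenchymal markers and EMT transcription factors 1 rose and 2 fell, with a median of -0.16. GNG11, a G protein gamma subunit, had a log2 fold change of 0.71, the factor FOXC1 one of -0.51 and the collagen cross-linker LOX one of -0.54. The FOXC1 and LOX calls were lost when any single sample was left out, and that of GNG11 held only without control replicates 1 or 3.

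Some of the 30 largest changes lay outside the lists or in lists described below, and these were grouped after their values were seen. MUC1, the membrane mucin, measured 11.2, 24.7 and 23.6 FPKM in the controls and 58.2, 60.4 and 42.6 in the KO samples, and TMPRSS2, a membrane serine protease counted again among the proteases, 0.90, 1.44 and 1.25 against 5.74, 5.70 and 5.05. SPDEF, an ETS factor of secretory epithelium, fell, with 15.6, 26.9 and 27.5 FPKM in control and 7.97, 8.06 and 6.43 in KO samples (log2 fold change -1.48, adjusted p = 0.022). The groups were apart in all 3 genes. The noncoding RNA UCA1 rose from 11.9, 13.1 and 15.6 to 40.2, 33.5 and 40.7 FPKM. FER1L4, a pseudogene, and the antisense RNA RHPN1-AS1, whose reads may be shared with its partner gene because the counting strand is not given, had log2 fold changes of 1.62 and 1.35.

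Matrix genes changed unevenly. Among 17 collagens COL6A2 rose from 17.8, 15.5 and 17.3 to 41.8, 43.5 and 34.7 FPKM (log2 fold change 1.20, SE 0.10, adjusted p = 0.0078), while COL8A1 fell by 0.89 on the log2 scale. The COL6A2 call held without each of the 6 samples, and that of COL8A1 in none of these fits, and with the GC and length correction 2 collagens were higher and 2 lower. Of 36 laminins, proteoglycans and other glycoproteins 4 rose (11.1%) and 1 fell. TNC, tenascin C, a matrix protein of wounds and tumour stroma, fell from 40.7, 43.4 and 35.2 to 20.4, 17.4 and 18.3 FPKM (log2 fold change -1.04, SE 0.10, adjusted p = 0.0082). MATN2 (15.5, 18.1 and 23.5 against 49.8, 44.5 and 41.0 FPKM), LTBP3, which holds latent TGF-beta in the matrix, VWA1 and HSPG2 (perlecan) rose. The higher count was 1 without any 1 control, 0 without KO replicates 1 or 2 and 3 without KO replicate 3. ITGB4, the hemidesmosome integrin, rose from 45.4, 63.2 and 61.9 to 96.6, 110.9 and 85.9 FPKM and ITGB2 fell, the only DEGs of 14 integrin subunits. The ITGB4 call was lost when any 1 sample was left out.

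Of 66 proteases and inhibitors 6 rose (9.09%) and 2 fell, and with the GC and length correction 6 were higher and 4 lower. SERPINA3, which inhibits chymotrypsin-like proteases, measured 1.25, 1.62 and 1.73 FPKM in the controls and 7.91, 8.63 and 5.64 in the KO samples (log2 fold change 1.72, SE 0.16, adjusted p = 0.0082). TMPRSS2, ADAM28, the cathepsins CTSV and CTSF and the membrane-type metalloproteinase MMP15 were the other higher members. MMP1, the interstitial collagenase, measured 34.6, 34.5 and 36.4 against 23.4, 19.8 and 23.2 FPKM (log2 fold change -0.65, adjusted p = 0.012), and the serine protease HTRA1 had a log2 fold change of -0.56. The higher count was between 2, without KO replicate 2, and 4, and the lower count was 1 or 2. Without KO replicate 1 the higher count was 3.

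Axon guidance genes, whose ligands and receptors also steer migrating tumour cells and vessels, had 4 higher and 4 lower DEGs of 51 measured members, 7.84% in each direction. The lower members were ligands and a receptor. SLIT2, the ligand of ROBO receptors, measured 10.7, 8.31 and 5.79 FPKM in the controls and 1.95, 2.00 and 2.48 in the KO samples (log2 fold change -1.53, SE 0.20, adjusted p = 0.016), and its receptor ROBO1 measured 2.51, 3.0 and 2.53 against 0.85, 1.22 and 1.6. The semaphorins SEMA7A (37.9, 29.1 and 28.6 against 12.7, 11.3 and 12.9 FPKM) and SEMA3A (5.69, 4.96 and 5.20 against 1.84, 1.70 and 1.41) fell by 1.30 and 1.25 on the log2 scale. The higher members were all receptors, namely the semaphorin receptors PLXNA1, PLXNA3 and NRP2 and the ephrin receptor EPHA10, with log2 fold changes of 0.52 to 0.64. With the GC and length correction 0 members were higher and 5 lower, and the log2 fold changes of the 4 receptors were then 0.44 to 0.47, under the limit of 0.5. Without control replicates 1, 2 and 3 there were 1, 4 and 1 higher and 3, 2 and 3 lower, and without KO replicates 1, 2 and 3 there were 1, 1 and 3 higher and 2, 2 and 4 lower.

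In the TGF-beta and BMP list 5 of 42 measured members rose (11.9%) and 1 fell, and with the GC and length correction 5 were higher and 2 lower. The list holds TGFA, which despite its name is a ligand of the EGF receptor and not of this family, and without it 4 of 41 members rose (9.76%). BMP4, a morphogen, was abundant, at 131, 168 and 176 FPKM in control and 228, 253 and 246 in KO samples (log2 fold change 0.62, SE 0.12, adjusted p = 0.034). ID1, an inhibitor of helix-loop-helix factors and a classical BMP target, measured 106, 129 and 168 against 265, 275 and 216. ID2 rose as well, but near 1 FPKM. FST, follistatin, which binds activins and BMPs, fell from 22.1, 16.9 and 25.1 to 9.66, 9.52 and 13.1 FPKM. BMP8B and TGFA made up the higher members, and TGFA (25.5, 29.2 and 28.8 against 47.7, 45.7 and 44.7 FPKM) was also the only DEG of 34 EGF and FGF family genes. The higher count was 2, 2 and 4 without control replicates 1, 2 and 3 and 2, 1 and 2 without KO replicates 1, 2 and 3. FST was called only without control replicate 2 or KO replicate 3.

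Other signalling lists had few DEGs. Notch genes had 2 higher and 1 lower of 28 measured members, and their ligands diverged. JAG2 measured 2.81, 4.98 and 4.57 FPKM in control and 13, 10.3 and 8.44 in KO samples, and JAG1 17.6, 15.8 and 16.1 against 11.5, 10.7 and 11.2. The non-canonical ligand DLK2 rose by 0.84. The higher count was 0 without KO replicate 2, 2 without control replicate 2 and 1 without the others, and JAG1 was lost without control replicate 1 or KO replicate 2. Of 44 Wnt genes TCF7L1 rose and the Wnt antagonist DKK1 fell (172, 138 and 194 against 114, 105 and 108 FPKM). TCF7L1 was lost without KO replicates 1 or 2, and DKK1 without any sample but control replicate 2. Among 47 Hippo kinases, YAP, TAZ, TEAD and YAP/TAZ target genes IGFBP3 rose (23.1, 17.9 and 21.0 against 40.5, 41.9 and 36.96 FPKM), the muscle stress protein ANKRD1 fell (123, 125 and 161 against 97.1, 84.0 and 87.7 FPKM), and the median was 0.00. The ANKRD1 call was lost without any 1 sample and that of IGFBP3 without KO replicates 1 or 2. IGFBP3 was also the higher DEG of 19 insulin-like growth factor genes, in which HTRA1, a protease of binding proteins, and IGFBPL1 fell. HTRA1 was called again only without control replicate 1, and IGFBPL1 in none of the fits with a sample left out. Of 30 NF-kappaB subunits and targets TNFAIP2 rose (173, 157 and 157 against 281, 286 and 247 FPKM), with 3 members higher after the GC and length correction. Of 32 AP-1 and immediate early genes 0 passed, MYC measuring 87.3, 74.6 and 80.6 FPKM in control and 91.0, 85.2 and 92.6 in KO samples. SOCS2, which restrains cytokine receptors, was outside these lists and fell from 5.23, 4.49 and 3.22 to 0.84, 1.06 and 0.92 FPKM.

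Glycolysis and hypoxia-induced genes were mostly above 0. These genes are switched on by HIF transcription factors when oxygen is short, and include glycolytic enzymes, glucose and lactate handling and the HIF prolyl hydroxylases. All 51 listed members were measured, 45 had a log2 fold change above 0, and the median was 0.34, beside -0.01 for all genes. Of them 7 rose (13.7%) and 1 fell. ANGPTL4, a secreted inhibitor of lipoprotein lipase, measured 3.0, 3.57 and 4.28 FPKM in the controls and 14.1, 10.6 and 8.6 in the KO samples (log2 fold change 1.37, SE 0.19, adjusted p = 0.017). EGLN3, a HIF prolyl hydroxylase, measured 4.85, 8.72 and 10.4 against 20.1, 22.2 and 16.8. PGK1, a glycolytic kinase and the most abundant of the DEGs here, measured 628, 767 and 811 against 1153, 1161 and 947 (log2 fold change 0.57, SE 0.13, adjusted p = 0.048).

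PDK1, which closes pyruvate entry into mitochondria, the creatine transporter SLC6A8, the sterol sensor INSIG2 and the MYC antagonist MXI1 rose by log2 fold changes of 0.65, 0.58, 0.54 and 0.53. ADM, adrenomedullin, a vasodilator peptide also induced by hypoxia, fell from 35.0, 25.6 and 25.0 to 19.6, 17.7 and 16.3 FPKM. The other members fell short of the thresholds, such as CA9, a carbonic anhydrase named after its value was seen, with a log2 fold change of 1.16. With the GC and length correction 13 members were higher and 1 lower. The calls depended on single samples. The higher count was 3, 0 and 2 without control replicates 1, 2 and 3 and 2, 0 and 2 without KO replicates 1, 2 and 3, and ADM was lost without any 1 sample. The median of the list was 0.38 after scaling to a common 75th percentile and 0.36 after quantile normalization.

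Stretches before the starts of 3 of these genes are shown with ACGTG, the core letters of the hypoxia response element, or its reverse complement CACGT in capitals (RefSeq, GRCh38.p14, 100 bases each).
PGK1, chrX:78104018-78104117, plus strand: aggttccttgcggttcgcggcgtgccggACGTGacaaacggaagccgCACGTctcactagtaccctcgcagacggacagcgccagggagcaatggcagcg
ANGPTL4, chr19:8363905-8364004, plus strand: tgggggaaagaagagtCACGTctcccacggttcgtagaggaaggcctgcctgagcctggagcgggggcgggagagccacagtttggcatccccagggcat
INSIG2, chr2:118088329-118088428, plus strand: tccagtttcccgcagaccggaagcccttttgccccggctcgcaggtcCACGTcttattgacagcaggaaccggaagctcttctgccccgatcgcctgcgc
Of the 44 members with a sequence 20 (45.5%) had these letters on either strand within 250 bases before the start, beside 24.2% of all 8258 genes with a sequence. A promoter with CACGTG, which reads the same on both strands, was counted once. PDK1, EGLN3, ADM, MXI1 and SLC6A8 had 0 matches in this window.

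Cholesterol genes were mostly below 0. Sterol synthesis and uptake are driven together by SREBP2 when membrane cholesterol is low. Of 32 measured members 26 were below 0, 5 fell (15.6%, beside 1.31% of all genes) and 1 rose, with a median of -0.19. STARD4, which carries cholesterol between membranes, measured 14.1, 12.6 and 13.4 FPKM in the controls and 7.25, 6.70 and 7.35 in the KO samples (log2 fold change -0.83, SE 0.06, adjusted p = 0.0054). INSIG1, which retains the SREBP escort protein in the ER, measured 26.1, 16.4 and 20.4 against 9.36, 11.1 and 11.9. IDI1, an enzyme of the pathway, fell by 0.51 on the log2 scale. INSIG2, the higher member, belongs to the hypoxia list as well.

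The lower count was 4 without any 1 control and 2, 1 and 4 without KO replicates 1, 2 and 3, and INSIG2 was not called without any 1 sample. The median was -0.15 with the 75th percentile scaling and -0.19 after quantile normalization. Stretches before the starts of STARD4 and INSIG1 are shown with CCAAT or ATTGG in capitals (RefSeq, GRCh38.p14, 100 bases each).
STARD4, chr5:111512613-111512712, minus strand: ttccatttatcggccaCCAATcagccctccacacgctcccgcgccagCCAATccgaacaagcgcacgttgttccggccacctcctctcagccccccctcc
INSIG1, chr7:155297661-155297760, plus strand: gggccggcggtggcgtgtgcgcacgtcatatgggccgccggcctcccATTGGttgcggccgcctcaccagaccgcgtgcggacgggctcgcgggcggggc
Of the 25 members with a sequence 16 (64.0%) had these letters within 250 bases before the start, beside 35.4% of all genes with a sequence. IDI1 and INSIG2 had 0 matches in this window.

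**Figure D3:**
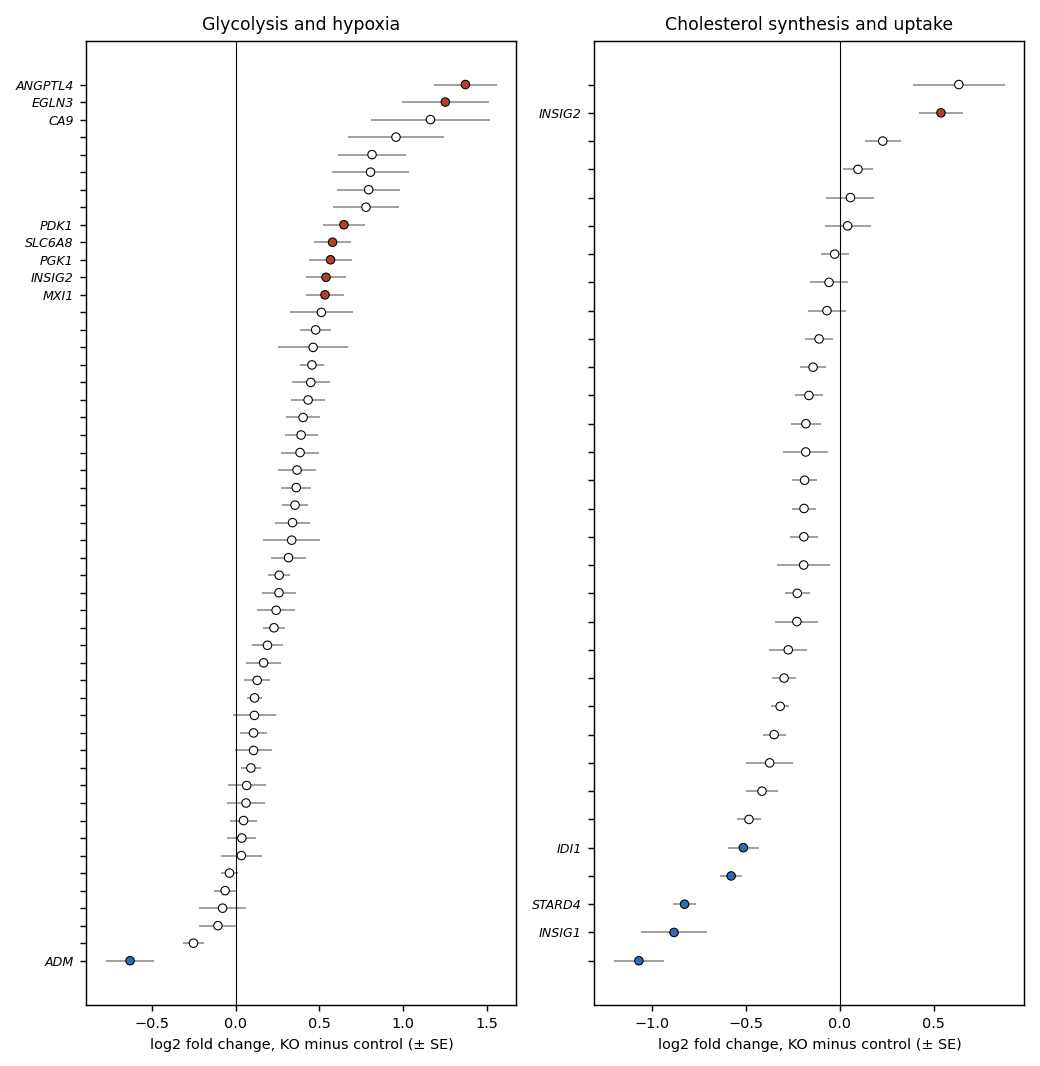
Log2 fold change (KO minus control) ± SE from limma for each measured member of the glycolysis and hypoxia list (left, 51 genes) and of the cholesterol list (right, 32 genes). Filled points are DEGs, red for higher and blue for lower, open points did not pass, and labels mark members named in the text. Most points lie right of 0 on the left (45 of 51) and left of 0 on the right (26 of 32).

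Among 43 genes of fatty acid and phospholipid metabolism 2 rose and 3 fell, and 3 were higher and 4 lower with the GC and length correction. CPT1A, which commits fatty acids to mitochondrial oxidation, measured 13.9, 16.1 and 14.99 FPKM in control and 26.9, 24.3 and 26.5 in KO samples (log2 fold change 0.75, SE 0.07, adjusted p = 0.0082), and the lipid droplet coat PLIN2 rose by 0.64. FABP5, a fatty acid carrier, ACSL4, which activates arachidonic acid, and the nuclear receptor PPARG fell by 0.70, 0.58 and 0.56 on the log2 scale. G0S2, an inhibitor of the lipase that opens lipid droplets, was outside the list and measured 296, 206 and 219 FPKM in the controls and 93.8, 101 and 90.5 in the KO samples (log2 fold change -1.31, adjusted p = 0.011). The groups did not overlap in any of these 6 genes. The list had 1 higher DEG without control replicates 1 or 3 or KO replicates 1 or 2, and 2 or 3 lower without any sample.

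Retinoid metabolism had 4 higher DEGs of 24 measured members (16.7%) and 0 lower, with a median of 0.19. DHRS3, which turns retinal back to retinol, measured 1.30, 2.96 and 2.89 FPKM in the controls and 12.8, 10.4 and 7.37 in the KO samples (log2 fold change 1.74, SE 0.28, adjusted p = 0.024). ALDH1A3, which makes retinoic acid and is used as a marker of stem-like breast cancer cells, measured 4.11, 4.28 and 3.76 against 13.4, 13.4 and 12.6 (log2 fold change 1.49, SE 0.06, adjusted p = 0.0014). ALDH3A1 and ALDH3B1, the other higher members, oxidise mainly other aldehydes, so 2 of the 4 act chiefly on retinoids. With the GC and length correction 5 members were higher and 1 was lower. The higher count was 3, 2 and 1 without control replicates 1, 2 and 3 and 1, 1 and 4 without KO replicates 1, 2 and 3.

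Proliferation genes had few DEGs and mostly negative log2 fold changes. Of 113 cell cycle and replication genes 85 were below 0 and 26 above, with a median of -0.13, yet only 2 rose and 2 fell, at 1.77% each close to the shares of all genes. E2F2 (2.99, 2.88 and 3.58 against 4.93, 5.07 and 5.65 FPKM) and MYBL2 (36.8, 37.5 and 42.0 against 57.7, 58.2 and 59.8), both transcription factors of the S phase, rose, while the checkpoint protein BUB3 and the repressor E2F7 fell by 0.50 and 0.53 on the log2 scale. None of the 4 was called without KO replicate 2. The list's median GC content was 45.7%, and after correction its median was -0.09 with 1 higher and 0 lower DEGs. DNA repair had 0 DEGs of 68 measured members. The p53 targets had 1 of 26, BBC3 (PUMA), which rose just past the limit from 5.17, 4.97 and 5.34 to 7.88, 7.54 and 7.72 FPKM and was under it after the GC correction. In the apoptosis list 3 of 42 rose and 0 fell. Besides BBC3 these were BIK, another BH3-only protein (1.95, 3.91 and 3.56 against 11.7, 9.03 and 7.65 FPKM), and the TNF receptor TNFRSF1B (4.36, 4.31 and 3.87 against 12.3, 10.1 and 8.68). Without control replicates 1, 2 and 3 the apoptosis list had 4, 1 and 2 higher DEGs, and 1 without any KO sample.

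The large housekeeping complexes had no DEG. Cytosolic ribosomal proteins had 66 of 78 members below 0 and a median of -0.13, which was -0.05 after quantile normalization and -0.07 after the GC correction. RPS18, the most abundant, measured 2679, 2673 and 2986 FPKM in control and 2773, 2425 and 2712 in KO samples, groups that overlapped. Proteasome subunits (35 of 46 below 0, median -0.10) and heat shock proteins and cochaperones (50 of 71 below 0, median -0.13) were alike in this. Of the latter 7 had an adjusted p under 0.05 with a log2 fold change within 0.5, among them HSP90AB1 at -0.25 (adjusted p = 0.032). An adjusted p under 0.05, at any fold change, was found for 1248 of all 11529 genes, so the list does not stand out by this count. The median of the 77 oxidative phosphorylation subunits was -0.06 but 0.02 after the GC correction, so its sign depended on that step. In the unfolded protein response list NUPR1 rose and CHAC1 and SHMT2 fell, of 44 measured, and only 1 of these 3 calls held without control replicate 1, control replicate 3 or KO replicate 3, and none without the other samples. After the GC correction 2 of this list were higher and 2 lower. Among 45 measured members of the NRF2 and antioxidant list 3 rose. They included TXNIP (64.8, 63.2 and 67.7 against 121, 124 and 103 FPKM), which binds thioredoxin and limits glucose uptake. The thioredoxin reductase TXNRD1 (183, 199 and 197 against 274, 308 and 276 FPKM) rose as well. Membership of the list does not show that a gene is a target of NRF2. Without KO replicate 2 none of the 3 was called, and 2 were without any other sample, while 4 members were higher with the GC correction.

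Chromatin genes had few DEGs. Of 24 measured SWI/SNF subunits SMARCA4 alone was a DEG, and the median was -0.05. Polycomb subunits (0 of 30) and histones (0 of 22) had no DEG, although the histone variant gene H3F3B stood lower by a log2 fold change of -0.37 at an adjusted p of 0.029. Of 285 ZNF factors ZNF488 rose and ZNF699 fell, at 0.351% each, and with the GC and length correction 3 were higher and 2 lower. The ZNF488 call held only without control replicates 1 or 3, and that of ZNF699 only without control replicate 3.

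Among 187 solute carriers 6 rose (3.21%) and 1 fell (0.535%), shares near or under those of all genes, and 5 were higher and 3 lower with the GC and length correction. SLC12A7, a potassium and chloride cotransporter (9.02, 10.2 and 9.03 against 17.5, 18.3 and 17.0 FPKM), and the inositol carrier SLC5A3 rose by 0.84 and 0.74, and the zinc and manganese importer SLC39A8 fell by 0.78. Regulators of small GTPases and G proteins had 4 higher and 4 lower DEGs of 91, and 5 higher and 8 lower with the correction. Besides ARHGDIB, RASD1, a Ras relative induced by glucocorticoid, fell most (6.11, 9.81 and 8.78 against 2.39, 1.88 and 1.28 FPKM, log2 fold change -1.69, adjusted p = 0.014), and the exchange factor ARHGEF4 rose most, by 0.78. Without KO replicate 2 there was 1 higher and 1 lower DEG in this list, and without control replicate 3 there were 5 lower. The solute carriers had 3, 4 and 4 higher DEGs without control replicates 1, 2 and 3, 3, 2 and 4 without KO replicates 1, 2 and 3, and 3 lower without control replicate 1. Receptor-type tyrosine phosphatases and liprins had 2 of 14 higher, PTPRF (73.7, 76.7 and 74.4 against 115, 123 and 117 FPKM) and PTPRJ, and a median of 0.34, which was 0.22 after the GC correction, when 4 members were higher. S100 proteins (0 of 15) and metallothioneins (0 of 5) had no DEG. Outside the lists LPXN, a focal adhesion adaptor, measured 25.4, 25.0 and 18.4 against 7.85, 7.74 and 7.03 FPKM and EVA1A, an ER protein of autophagy, 48.6, 45.9 and 40.7 against 19.2, 18.9 and 15.7. SYNJ2BP-COX16, a readthrough of neighbouring genes with which it shares reads, had a log2 fold change of -1.45.

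The change in MDA-MB-231 was then set beside that in MDA-MB-468 by testing the difference itself over all 12 samples. The change differed for 1699 genes (14.7%), with MDA-MB-231 the higher for 787 of them. Of the 30 genes with the largest changes in MDA-MB-231 all but C3, SPDEF and SYNJ2BP-COX16 differed. They were chosen for the size of the change that enters this difference, so their number is a description. G0S2, HLA-DRA and TRBC2 were listed at 0 in all 6 MDA-MB-468 samples, and for them the difference repeats the change in MDA-MB-231. In MDA-MB-468 the log2 fold change of HLA-DPA1 was -0.11 (difference 2.51, adjusted p = 0.0012), that of IL11 0.10 (difference -2.78, adjusted p = 1.1e-05) and that of CXCR4 0.02 (difference -2.40, adjusted p = 7.3e-06). SMARCA4 itself fell more in MDA-MB-231, by a difference of -0.41 (adjusted p = 0.027). TNC went in opposite directions, since it rose by 1.11 in MDA-MB-468 (adjusted p = 0.014), a difference of -2.16 (adjusted p = 1.1e-05).

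By list, 10 of 32 cholesterol genes differed, all with the lower change in MDA-MB-231, where the list's median was -0.19 against 0.30 in MDA-MB-468. In the hypoxia list 17 of 51 differed, with MDA-MB-231 the higher for 14, and the medians were 0.34 and -0.03. The epithelial list had 13 of 70, not far above the 14.7% of all genes, with 10 higher in MDA-MB-231. The mesenchymal list had 7 of 20, all lower. Ribosomal protein genes, without a DEG in either cell line, had 21 of 78 that differed, all lower in MDA-MB-231. In the leukocyte-type list 7 of 14 differed, with CD14 higher and 6 lower. Of the 4 retinoid DEGs ALDH3B1 was the only one whose change was not shown to differ.

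**Figure D4:**
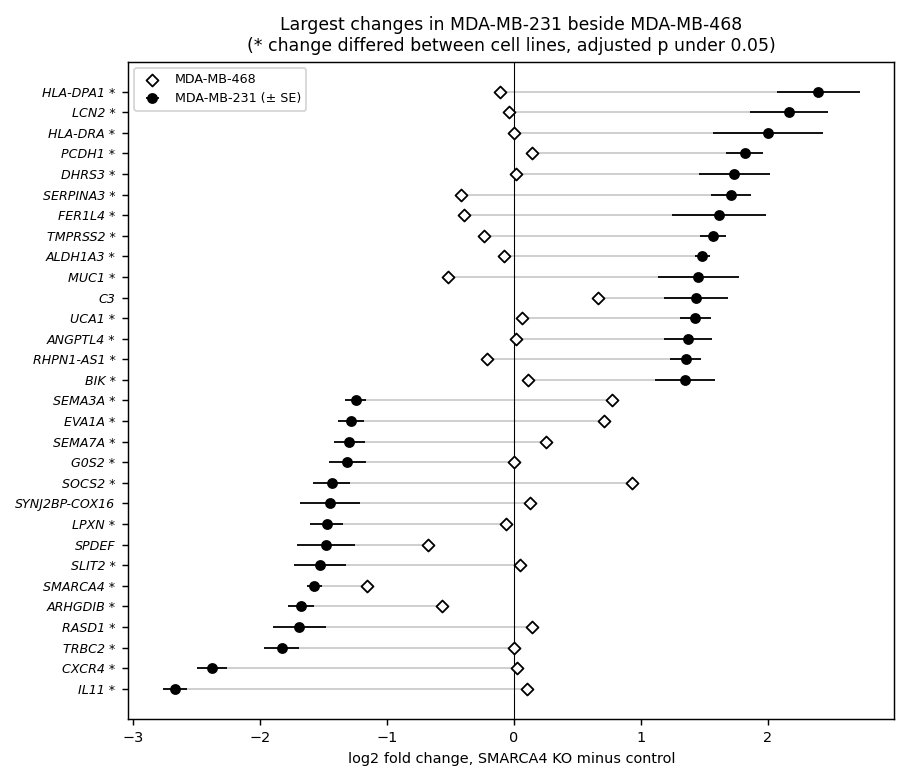
Log2 fold change (KO minus control) in MDA-MB-231, with SE, and in MDA-MB-468 for the 15 largest increases and the 15 largest decreases in MDA-MB-231. An asterisk marks an adjusted p under 0.05 for the difference between the cell lines. The MDA-MB-468 values cluster near 0 for most genes, as for HLA-DPA1 (-0.11) and IL11 (0.10).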

How the data were processed

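RNA-seq libraries (TruSeq stranded mRNA) of 3 SMARCA4 KO and 3 control samples of MDA-MB-231 were compared, and 6 of MDA-MB-468 entered the test of a difference. The authors used Trimmomatic for trimming, STAR for alignment to hg19 and RSEM for FPKM, dropped genes whose mean FPKM or its SD was below 1, and deposited the rest, 11529 genes, as log2(FPKM + 1). Depth is unknown, as FPKM was rounded to steps of 0.01. limma 3.58.1 (R 4.3.3, lmFit, eBayes without trend) was fitted to the deposited log2 values and tested on simulated data, with Benjamini-Hochberg adjustment over all genes. DEGs had adjusted p under 0.05 and absolute log2 fold change over 0.5. FPKM values printed are the deposited values with the log taken off.

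Symbols were matched to GENCODE release 44 on GRCh37 by current (10181) or older name (695), and 18 rows with a date in place of a symbol were tested but not named. For the GC and length correction, loess curves (span 0.3) were taken off every sample. The members and gene lists were chosen with earlier results of these data known. Named were SMARCA4, the 15 largest increases and decreases with groups apart, each list's DEGs (at most 8 per direction), and up to 3 abundant members of lists with few DEGs. Some genes within this rule are counted but not reported here by name. Lists are described by counts and medians, without a test of their own. Alternatives were a pseudocount of 0.1, a filter of mean log2 over 2, an intensity trend, 1 fit of all samples, 75th percentile scaling, quantile normalization, the GC correction, a replicate block and leaving out each sample. Plots were made in matplotlib 3.10.9.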

Additional observations from a re-analysis of the deposited data

Results flagged for a closer look

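The results here were set apart because the change after SMARCA4 KO differed between MDA-MB-231 and MDA-MB-468 at an adjusted p under 0.05 in the interaction test of limma over all 12 samples. This held for 1699 genes. Among the lists it held for 3 of 10 MHC class II members, 6 of 24 complement and defence proteins, 15 of 28 cytokines, 7 of 14 leukocyte-type genes, 13 of 70 epithelial genes, 17 of 51 glycolysis and hypoxia genes, 10 of 32 cholesterol genes, 7 of 24 retinoid genes, 15 of 51 guidance genes, 10 of 42 TGF-beta and BMP genes and 11 of 36 matrix glycoproteins, against 14.7% of all genes.

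Of the genes with the largest increases in MDA-MB-231, the difference in log2 fold change (MDA-MB-231 minus MDA-MB-468) was, by gene, HLA-DPA1 2.51, LCN2 2.21, SERPINA3 2.13, FER1L4 2.01, HLA-DRA 2.00, MUC1 1.97, TMPRSS2 1.81, DHRS3 1.72, PCDH1 1.68, RHPN1-AS1 1.57, ALDH1A3 1.56, UCA1 1.37, ANGPTL4 1.36 and BIK 1.24. Of those with the largest decreases it was IL11 -2.78, CXCR4 -2.40, SOCS2 -2.37, SEMA3A -2.02, EVA1A -1.99, RASD1 -1.83, TRBC2 -1.83, SLIT2 -1.58, SEMA7A -1.55, LPXN -1.41, G0S2 -1.31, ARHGDIB -1.11 and SMARCA4 -0.41. These genes were chosen for a large change in MDA-MB-231, and HLA-DRA, G0S2 and TRBC2 were listed at 0 in every MDA-MB-468 sample. Groups of 3 samples were not searched for single outlying samples.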

How the results depend on the processing

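The counts were recomputed under the alternatives set down for the comparison. With a pseudocount of 0.1, a filter on the mean log2 value, an intensity trend, 1 fit of all 12 samples, 75th percentile scaling, quantile normalization or the GC and length correction, there were 417 to 567 DEGs, of which 344 to 425 were among the 426. The share of DEGs that were higher was 64.6% as reported, 74.2% with the 75th percentile scaling (343 higher and 119 lower) and 56.8% after quantile normalization (237 and 180). The labels give same-numbered KO and control samples of MDA-MB-231 a shared p number (10, 11 and 12), whose meaning is not stated. The main fit did not pair the samples by replicate number. Same-numbered KO and control samples deviated from their group means with correlations of -0.05, 0.07 and -0.12. For samples of different number the correlations ran from -0.19 to 0.22. Whether a shared number marks a shared batch was not tested. With the replicate block there were 0 DEGs (0 higher and 0 lower) by limma, where adjusted p-values began at 0.052 and 3126 genes had an unadjusted p under 0.05. With the replicate block and the GC and length correction together there were 377, of which 308 were among the 426.

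Leaving out each sample in turn, which leaves a group with 2 samples, gave 99 to 311 DEGs, 54 to 195 of them higher and 45 to 116 lower. The counts were 281, 280 and 264 without control replicates 1, 2 and 3, and 173, 99 and 311 without KO replicates 1, 2 and 3. The number of genes that responded differently in MDA-MB-231 and MDA-MB-468 was 1612 with the 75th percentile scaling and 1463 with the replicate block, and 924 to 1897 with each sample left out, lowest without MDA-MB-468 KO replicate 2, while it was 995 and 962 without MDA-MB-231 KO replicates 1 and 2 and 1038 without MDA-MB-468 control replicate 1. The sign of the change was the same in each alternative for the 139 genes named for a change, of which the filter on the mean log2 value left 117 to test. All were DEGs whose KO samples lay on one side of the controls, so leaving out a sample could not reverse the sign. In the 6 fits with a sample left out 33 to 84 of the 139 were still called. Depth is not known, so genes near 1 FPKM, such as CDH1 and TJP3, carry an unknown counting error.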

Other observations

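Among the 275 higher DEGs the lowest of the 3 controls was replicate 1 in 185, replicate 2 in 39 and replicate 3 in 51, against 4778, 3496 and 3255 of all 11529 genes. The lowest KO sample of these DEGs was replicate 3 in 179, replicate 1 in 58 and replicate 2 in 38. Among the 151 lower DEGs the lowest control was replicate 1 in 34, replicate 2 in 68 and replicate 3 in 49. These counts were looked up after the values of HLA-DPA1 and HLA-DRA had been seen.

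The following sets were also chosen after values were seen, within the 10081 genes whose log2 values averaged above 2. The 15 genes of the mitochondrial chromosome had a median log2 fold change of 0.16 in MDA-MB-231 and -0.24 in MDA-MB-468. On chromosome 19, where SMARCA4 lies, 184 of 323 other genes that start before 20 Mb (57.0%) were below 0, with a median of -0.02, and 128 of 354 genes that start after 28 Mb (36.2%), with a median of 0.05. Of all these genes 53.9% were below 0, with a median of -0.02. With the GC and length correction the medians of these 3 sets were -0.09, 0.03 and -0.02, and that of the mitochondrial genes in MDA-MB-231 was 0.27.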
